A study of Mus musculus with 8 samples.

Results

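The nucleic acid sensor genes described here are the 9 genes *Ddx58*, *Ifih1*, *Dhx58*, *Mavs*, *Trim25*, *Tlr3*, *Zbp1*, *Eif2ak2* and *Adar*, taken by symbol from the 41325 symbols listed for each of 8 RNA-seq libraries. The libraries came from the mouse line C3H10T1/2, mesenchymal stem cells (MSCs) that form adipocytes in culture. The lines shControl, shKDM4D, shNFIB and shMLL1 were each sequenced once at day 0 and once at day 5 of adipogenic differentiation. KDM4D is a histone demethylase, NFIB is a transcription factor and MLL1, encoded by *Kmt2a*, is a histone methyltransferase. The knockdown lines carried a stably expressed short hairpin RNA from the pLKO.1 vector and were puromycin-resistant clones. Which clone was sequenced is not given in the sources used here, so the clone, the hairpin and the loss of the target cannot be told apart. The labels give the genotype of shControl as WT, and the study calls this sample control MSCs. Day 0 cells of every line were 2 days past confluence and had not been induced. Day 5 cells of every line had received insulin (10 ug/ml), dexamethasone (1 uM) and isobutylmethylxanthine (0.5 mM) in 10% fetal bovine serum up to day 2, followed by insulin without the other agents for 2 days.

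The products of these genes recognise or respond to RNA or DNA in an unusual place or form. RIG-I (*Ddx58*) and MDA5 (*Ifih1*) are cytosolic helicases that bind double-stranded RNA and signal through MAVS on mitochondria, LGP2 (*Dhx58*) modulates them, and TRIM25 is a ubiquitin ligase linked to RIG-I. TLR3 senses double-stranded RNA in endosomes and ZBP1 senses nucleic acids in the Z conformation. PKR (*Eif2ak2*) stops translation on double-stranded RNA, whereas ADAR edits adenosine to inosine in it and so limits sensing. Signalling by these sensors can start the production of type I interferon, and interferon in turn raises transcription of several of the sensor genes through the interferon-stimulated response element (ISRE).

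Because members of this group are known targets of interferon, the promoter windows of RefSeq (GRCm38.p6, 250 bases before to 50 bases after each start) were searched for the ISRE core, written as GAAA, any 2 bases, GAAA, on both strands. Of the 9 genes, 7 had a window, and *Dhx58* and *Zbp1* had none. The ISRE core was found in 3 of these 7 genes (42.9%), against 3.99% of 27025 genes with a window and 9 of 22 interferon-induced genes (40.9%). Counted by window, 3 of 9 windows held it, against 3.44% of 32851 windows. The 30 bases around each match are shown to make the shared letters visible. Each stretch is on the minus strand of its chromosome, is written 5′ to 3′ in the direction of the gene, and has the ISRE core in capitals.
Ddx58 (chr4:40239804-40239833): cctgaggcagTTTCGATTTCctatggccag
Ifih1 (chr2:62646206-62646235): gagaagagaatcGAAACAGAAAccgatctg
Eif2ak2 (chr17:78882535-78882564): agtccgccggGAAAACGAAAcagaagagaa
The core lies 3 to 12 bases after the RefSeq start in *Ddx58*, where it reads on the opposite strand, 33 to 42 bases after the start in *Ifih1* and 19 to 28 bases after the start in *Eif2ak2*. The core of the gamma-activated site, TTCNNNGAA, was found in *Adar* (23 to 31 bases after a start) and in *Eif2ak2* (at -178 to -170), that is in 2 of 7 genes (28.6%) against 9.55% of all genes with a window. No full match to either core was found in the windows of *Mavs*, *Trim25* and *Tlr3*. A match describes the letters and not a site in use.

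Expression was deposited as RPKM, reads scaled to the exon length of the gene and to the mapped reads of the library. This scaling does not correct for differences in RNA composition between libraries. The libraries held between 15800000 and 38200000 mapped reads, as recovered from the RPKM values, and the shMLL1 libraries were the deepest. *Nfib* was lower in shNFIB than in shControl cells (log2 ratio -2.10 at day 0 and -2.33 at day 5), *Kmt2a* was lower in shMLL1 cells (-1.37 and -1.70), and *Kdm4d* had 15 reads or fewer in every library. Each condition had 1 library, and therefore no p-value is given. The 95% intervals of the log2 ratios are exact and cover counting error only, not the spread between cultures or clones. A gene was called higher or lower where its RPKM differed by more than 2-fold, among the 11513 genes whose RPKM exceeded 1 in some library (at least 1 of 8). Values for the 4 lines follow the order shControl, shKDM4D, shNFIB, shMLL1, and values for the 3 knockdown lines the same order without shControl, unless lines are named. Of the 9 sensor genes, 8 passed this minimum. *Ifih1* and *Zbp1* passed it only through 2 libraries, shNFIB and shMLL1 cells at day 5, so that their presence among the genes counted depends on those libraries. All comparisons with shControl cells on the same day share 1 control library. In RNA from whole cultures, more cells expressing a gene and more RNA per cell cannot be told apart.

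Of 9 mesenchymal markers, 0, 1 and 1 were higher and 1, 1 and 2 lower than in shControl cells at day 5 in the 3 knockdown lines. Of all genes, 1.88%, 5.54% and 5.25% were higher and 4.57%, 5.67% and 4.02% lower. The most abundant, *Vim*, had an RPKM between 984 and 1510 in the 8 libraries. The libraries stood apart in *Thy1*, a surface marker of MSCs, whose RPKM was 25.0 and 22.6 in shControl cells and 11.8 and 11.1 in shMLL1 cells, but between 0.0171 and 0.139 in shKDM4D and shNFIB cells. *Ly6a*, which encodes the surface antigen Sca-1, had an RPKM of 172, 191, 90.6 and 81.5 at day 0 and 136, 109, 340 and 927 at day 5, so that at day 5 it was higher in the same lines as *Zbp1*. *Pdgfra*, which encodes a growth factor receptor, had 70.8, 50.5, 35.7 and 32.0 at day 5. The part of these marker differences in the sensor values was not tested. The summed RPKM of 10 leukocyte and macrophage markers was between 0.554 and 1.67 and came almost wholly from *Cd68*, while *Ptprc*, which encodes the leukocyte antigen CD45, was at most 0.00559. The summed RPKM of 5 endothelial markers was between 0.243 and 1.72.

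*Ddx58*, which encodes RIG-I, lies on chromosome 4 (GRCm38, 40203773 to 40239828, minus strand; ENSMUSG00000040296.15). Its RPKM in shControl, shKDM4D, shNFIB and shMLL1 cells was 7.85, 5.75, 5.13 and 5.11 at day 0, and 11.9, 12.7, 28.5 and 47.3 at day 5. All day 5 libraries lay above all day 0 libraries, and shMLL1 cells were the highest at day 5 after being the lowest at day 0. At day 5 the shKDM4D line differed from shControl by a log2 ratio of 0.09 (95% interval 0.00 to 0.19). The ratio was 1.26 (1.18 to 1.35) for shNFIB and 2.00 (1.92 to 2.07) for shMLL1. *Ddx58* was measured with 675 reads or more in every library, so that the intervals are narrow. At day 0 the ratio was negative in the 3 knockdown lines, with -0.45 (-0.58 to -0.32), -0.61 (-0.75 to -0.48) and -0.62 (-0.73 to -0.51), and none was past 2-fold.

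*Ifih1*, which encodes MDA5, the sensor of long double-stranded RNA, lies on chromosome 2 (62595798 to 62646255, minus strand; ENSMUSG00000026896.14). Its RPKM was 0.354, 0.0690, 0.0656 and 0.231 at day 0 and 0.836, 0.215, 1.18 and 10.5 at day 5, in the same order of lines. *Ifih1* was low in all libraries except shMLL1 cells at day 5. That library held 3259 *Ifih1* reads, against 10 to 152 in the other 7. At day 5 shMLL1 exceeded shControl by a log2 ratio of 3.65 (3.39 to 3.91), a 12.5-fold difference. In shNFIB cells the ratio at day 5 was 0.49 (0.14 to 0.84), which did not reach 2-fold. In shKDM4D cells *Ifih1* was lower on both days, by -2.36 (-3.42 to -1.44) at day 0 and -1.96 (-2.52 to -1.43) at day 5. The low value at day 0 was shared by shNFIB cells, with a ratio of -2.43 (-3.55 to -1.48), and both lines had only 11 and 10 reads there.

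*Dhx58*, which encodes LGP2, lies on chromosome 11 (100694884 to 100704271, minus strand; ENSMUSG00000017830.15). Its RPKM was 0.792, 0.219, 0.164 and 0.200 at day 0. At day 5 it was 2.99, 2.52, 10.1 and 33.3. As with *Ddx58*, all day 5 values lay above all day 0 values, but the span was wider, 203-fold from the lowest to the highest library against 9.25-fold for *Ddx58*. At day 0 *Dhx58* was lower than in shControl cells in each knockdown line, with log2 ratios of -1.85 (-2.80 to -1.01), -2.27 (-3.40 to -1.31) and -1.98 (-2.71 to -1.31). At day 5 the ratios were -0.25 (-0.55 to 0.06), 1.75 (1.51 to 2.00) and 3.48 (3.27 to 3.70). The antisense gene *Dhx58os* overlaps *Dhx58*. Its RPKM was at most 0.464, and whether the counting used strand is not given in the sources used here.

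*Mavs*, which encodes the mitochondrial adaptor shared by RIG-I and MDA5, lies on chromosome 2 (131234063 to 131248025, plus strand; ENSMUSG00000037523.13). Its RPKM was 8.51, 10.9, 10.3 and 6.94 at day 0 and 8.04, 9.16, 8.76 and 7.34 at day 5 in shControl, shKDM4D, shNFIB and shMLL1 cells. These values spanned 1.58-fold, the narrowest range among the 8 genes over the minimum, and shMLL1 cells were the lowest on both days. At day 5 the log2 ratio was 0.12 (-0.06 to 0.31) for shNFIB and -0.13 (-0.29 to 0.03) for shMLL1. The adaptor transcript was therefore within 2-fold of shControl cells at day 5 in both lines.

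*Trim25*, on chromosome 11 (88999376 to 89020293, plus strand; ENSMUSG00000000275.16), was listed at 0 in 6 libraries. It had 2 reads in shControl cells and 1 read in shNFIB cells at day 5. A gene of its exon length would need an RPKM between 0.0136 and 0.0329 to reach 3 reads, and no library reached that, so no fold is given. Whether the gene was not transcribed or its reads were not counted cannot be told apart from these values.

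*Tlr3*, the endosomal receptor of double-stranded RNA, lies on chromosome 8 (45395665 to 45411080, minus strand; ENSMUSG00000031639.12). Its RPKM was 1.59, 1.44, 1.69 and 0.995 at day 0 and 1.50, 1.23, 3.33 and 6.57 at day 5. *Tlr3* was low and similar in 5 libraries, namely both of shControl, both of shKDM4D and shNFIB at day 0, and the intervals of the ratios among these libraries that were computed included 0. It was lower in shMLL1 cells at day 0, with a log2 ratio of -0.67 (-0.96 to -0.39). At day 5 the ratios were -0.28 (-0.62 to 0.06), 1.15 (0.86 to 1.45) and 2.13 (1.89 to 2.38), so that both shNFIB and shMLL1 were past 2-fold.

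*Zbp1*, whose product also engages the kinase RIPK3 in necroptosis, lies on chromosome 2 (173206612 to 173218923, minus strand; ENSMUSG00000027514.14). Its RPKM was 0.606, 0.203, 0.547 and 0.274 at day 0 and 0.689, 0.170, 15.1 and 57.3 at day 5. It was below 1 in 6 libraries, and shNFIB and shMLL1 cells at day 5 lay far above the rest. Against shControl at day 5, the log2 ratio was 4.46 (4.03 to 4.91) for shNFIB, a 22.0-fold difference, and 6.38 (5.97 to 6.82) for shMLL1, an 83.2-fold difference. Among the 11513 genes these ratios ranked 48 and 42 from the top. In shKDM4D cells *Zbp1* was lower on both days, with ratios of -1.58 (-2.54 to -0.72) and -2.02 (-3.03 to -1.11). These low values rested on 14 and 13 reads. In shMLL1 cells *Zbp1* was also lower at day 0, by -1.14 (-1.78 to -0.52), and its place among the expressed genes in that line moved from 10918 at day 0 to 780 at day 5, with 1 as the highest.

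*Eif2ak2*, which encodes PKR, lies on chromosome 17 (78852564 to 78882573, minus strand; ENSMUSG00000024079.4). Its RPKM was 20.5, 21.5, 21.0 and 20.1 at day 0 and 25.6, 25.6, 46.2 and 67.0 at day 5. It was the most abundant of the 9 transcripts per length of exon in each of the 8 libraries. At day 0 no knockdown line differed from shControl cells by more than counting error, and the intervals of the 3 ratios included 0, from -0.02 (-0.09 to 0.05) in shMLL1 to 0.07 (-0.01 to 0.15) in shKDM4D cells. At day 5 the shNFIB ratio of 0.85 (0.78 to 0.92) was just under 2-fold and the shMLL1 ratio of 1.38 (1.32 to 1.45) was past it.

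*Adar*, the RNA editing enzyme, lies on chromosome 3 (89715022 to 89753446, plus strand; ENSMUSG00000027951.16). Its RPKM was 4.42, 4.10, 4.18 and 3.80 at day 0 and 4.03, 4.39, 8.67 and 16.6 at day 5. The 6 libraries other than shNFIB and shMLL1 cells at day 5 lay close together, and those libraries lay above them. Their log2 ratios to shControl were 1.10 (0.96 to 1.25) and 2.04 (1.92 to 2.17). These RPKM values count all transcripts of the gene together and do not separate its isoforms.

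**Figure D1:**
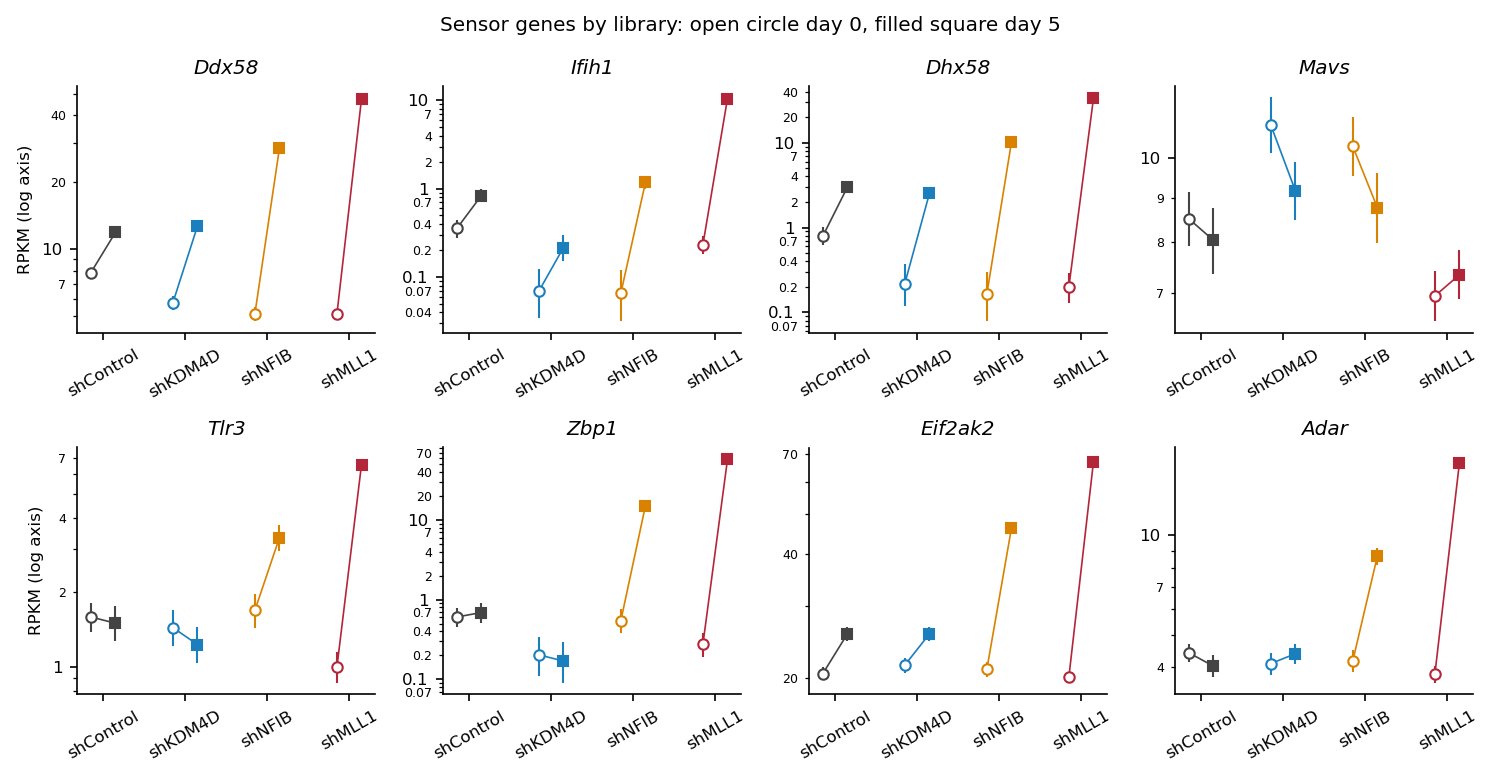
RPKM (log axis, its range differing between panels) of the 8 sensor genes over the minimum in the 4 lines, at day 0 (open circles) and day 5 (filled squares), with 95% Poisson intervals of the reads as bars and 1 library per point. *Zbp1* stands at 15.1 and 57.3 in shNFIB and shMLL1 cells at day 5 and below 1 elsewhere, while *Mavs* stays between 6.94 and 10.9.

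Over the libraries, 7 of the 9 genes were highest in shMLL1 cells at day 5, and these 7 had their second highest value in shNFIB cells at day 5. The other genes were *Mavs*, and *Trim25*, for which the values allow no comparison. The summed RPKM of the 9 genes was between 37.7 and 44.6 at day 0 in the 4 lines. At day 5 it was 55.6, 56.0, 122 and 246. The order of the transcripts changed as well. In shControl cells at day 0 *Zbp1* and *Ifih1* were the least abundant apart from *Trim25*, whereas in shMLL1 cells at day 5 *Zbp1* was second to *Eif2ak2*. Direct comparison of the 2 lines at day 5 gave a log2 ratio of shMLL1 to shNFIB cells of 3.16 (2.92 to 3.40) for *Ifih1*, 1.92 (1.82 to 2.03) for *Zbp1* and 1.72 (1.59 to 1.86) for *Dhx58*. It was 0.98 (0.79 to 1.17) for *Tlr3*, 0.94 (0.85 to 1.04) for *Adar*, 0.73 (0.68 to 0.79) for *Ddx58* and 0.53 (0.48 to 0.59) for *Eif2ak2*. The difference between these lines was thus unequal over the sensors and largest for *Ifih1*.

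At day 0, some sensors were lower than in shControl cells in the knockdown lines, and none was past 2-fold in the other direction. In shKDM4D cells 3 of the 9 genes were lower (*Ifih1*, *Dhx58* and *Zbp1*) and 0 higher, beside 4.26% of all genes lower and 1.98% higher. In shNFIB cells 2 were lower (*Ifih1* and *Dhx58*) and 0 higher, beside 6.05% and 2.95%. In shMLL1 cells 2 were lower (*Dhx58* and *Zbp1*) and 0 higher, beside 7.43% and 1.67%. The median log2 ratio of the 8 genes over the minimum was -0.29, -0.11 and -0.62 in the 3 lines, while that of all genes was between -0.07 and 0.03. The genes called lower are those with few reads, at most 77 in the shControl library, and *Ddx58*, *Mavs*, *Tlr3*, *Eif2ak2* and *Adar* were within 2-fold in each line.

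At day 5, 0, 5 and 7 of the 9 sensors were higher than in shControl cells in the 3 knockdown lines. In shKDM4D cells, where 0 were higher, 2 were lower (*Ifih1* and *Zbp1*), beside 1.88% and 4.57% of all genes. In shNFIB cells 5 were higher (*Ddx58*, *Dhx58*, *Tlr3*, *Zbp1* and *Adar*) and 0 lower, beside 5.54% and 5.67%. In shMLL1 cells 7 were higher, these 5 with *Ifih1* and *Eif2ak2*, and 0 lower, beside 5.25% and 4.02%. The median log2 ratio of the 8 genes was -0.12, 1.13 and 2.09, against 0.01, 0.09 and 0.07 over all genes. The count in shNFIB cells included genes near the limit. *Adar* at 1.10 and *Tlr3* at 1.15 were just inside it, *Eif2ak2* at 0.85 just outside, and with 1 added to each RPKM 3 genes remained past 2-fold (*Ddx58*, *Dhx58* and *Zbp1*).

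**Figure D2:**
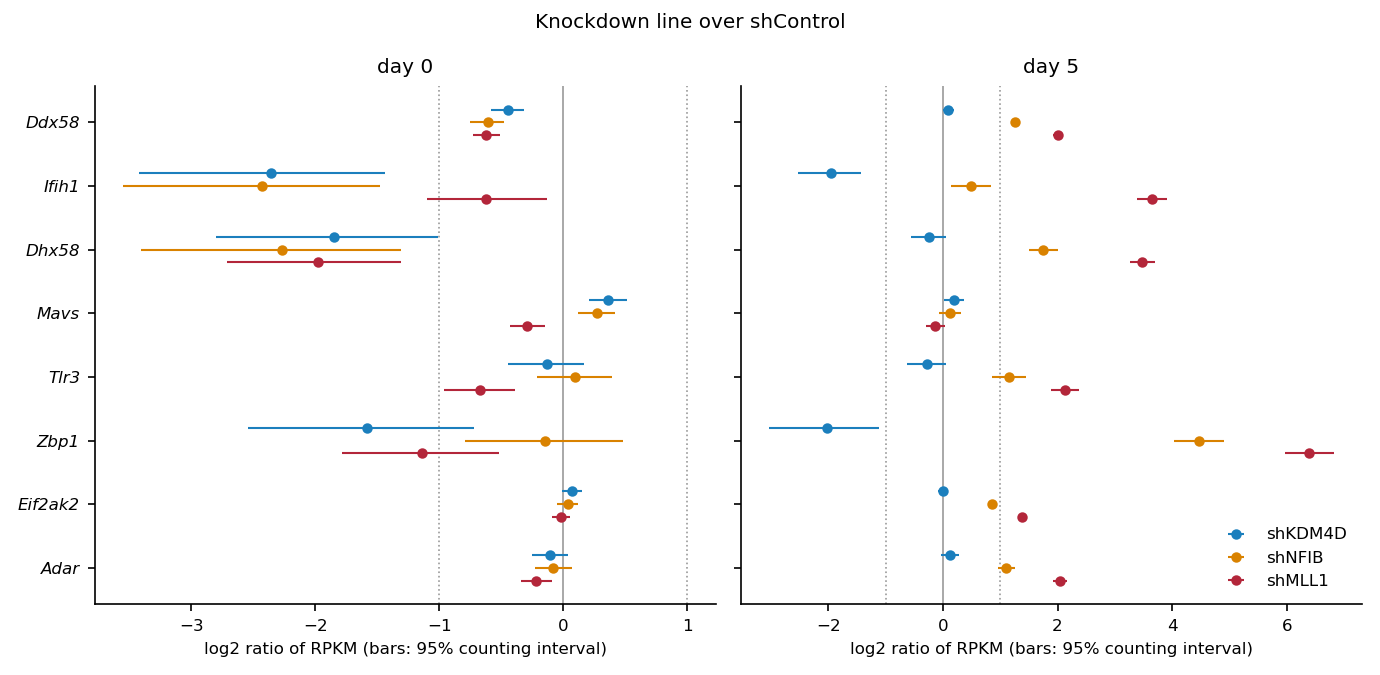
Log2 ratio of RPKM of each knockdown line to shControl cells for the 8 sensor genes at day 0 (left) and day 5 (right), with exact 95% counting intervals as bars and 2-fold limits as dotted lines. The points of shNFIB and shMLL1 cells lie right of 0 at day 5 for all genes but *Mavs*, up to 6.38 for *Zbp1*, and those of *Dhx58* lie left of -1 at day 0 in each line.

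The change from day 0 to day 5 within each line uses a separate pair of libraries for every line. In shControl cells 2 of the 9 genes were higher at day 5 (*Ifih1* and *Dhx58*) and 0 lower, beside 13.0% and 8.56% of all genes. In shKDM4D cells 3 were higher (*Ddx58*, *Ifih1* and *Dhx58*) and 0 lower, beside 12.8% and 8.44%. *Ifih1* and *Dhx58* were thus higher at day 5 in these lines too, and the log2 changes of *Dhx58* were 1.92 (1.51 to 2.34) and 3.52 (2.74 to 4.42). In shNFIB cells 6 were higher and 0 lower, beside 12.6% and 4.96%, and *Tlr3*, at 0.98 (0.70 to 1.27), was just outside the limit. In shMLL1 cells 7 were higher and 0 lower, beside 20.4% and 6.89%. The median log2 change of the 8 genes was 0.25, 0.17, 1.81 and 2.97, against 0.03, 0.03, 0.09 and 0.17 over all genes.

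The size of the change differed between lines by more than counting error for 7 of the genes. Relative to the change in shControl cells, the log2 change of *Zbp1* was larger by 4.61 (3.87 to 5.34) in shNFIB and by 7.52 (6.80 to 8.25) in shMLL1 cells. That of *Dhx58* was larger by 4.03 (3.04 to 5.01) and 5.46 (4.77 to 6.15), and that of *Ifih1* by 2.92 (1.91 to 3.93) and 4.26 (3.74 to 4.79). These values add the lower level at day 0 to the higher level at day 5, and for *Ifih1* in shNFIB cells most of the difference came from day 0. For *Ddx58* they were 1.88 (1.72 to 2.04) and 2.61 (2.49 to 2.74), for *Tlr3* 1.06 (0.65 to 1.47) and 2.80 (2.44 to 3.17), and for *Adar* 1.18 (0.98 to 1.39) and 2.26 (2.09 to 2.43). For *Eif2ak2* they were 0.81 (0.70 to 0.92) and 1.41 (1.32 to 1.50). For *Mavs* they were -0.15 (-0.38 to 0.09) and 0.16 (-0.05 to 0.37), with 0 inside both intervals. In shKDM4D cells the change exceeded that of shControl cells by 1.61 (0.73 to 2.49) for *Dhx58* and by 0.54 (0.39 to 0.70) for *Ddx58*, and the intervals of *Ifih1*, *Mavs*, *Tlr3*, *Zbp1* and *Eif2ak2* included 0. For *Adar* the difference was 0.23 (0.02 to 0.44).

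**Figure D3:**
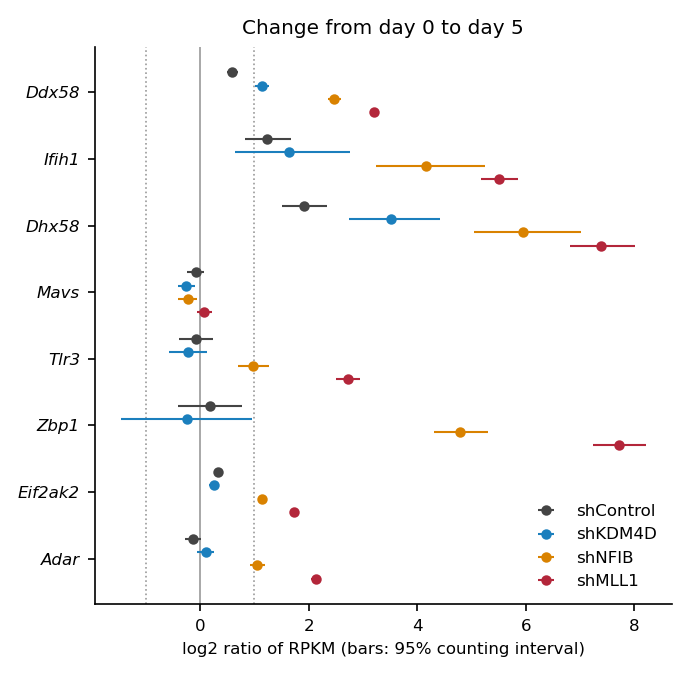
Log2 ratio of RPKM at day 5 to day 0 in each of the 4 lines for the 8 sensor genes, with exact 95% counting intervals as bars and 2-fold limits as dotted lines. In every gene but *Mavs* the change is largest in shMLL1 and second largest in shNFIB cells, reaching 7.71 for *Zbp1* and 7.38 for *Dhx58* in shMLL1 cells.

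The adipocyte markers were given beside these comparisons because the lines differ in differentiation. All 7 of them were lower than in shControl cells at day 5 in each knockdown line, with a median log2 ratio of (RPKM + 0.1) of -4.83, -7.96 and -7.23. Of the 9 sensors, 0, 5 and 7 were higher in the same comparisons. Of all genes, 4.57%, 5.67% and 4.02% were lower there and 1.88%, 5.54% and 5.25% higher. The summed RPKM of the leukocyte markers at day 5 was 1.28, 0.934, 0.554 and 1.48, and *Ptprc* was at 0 in all day 5 libraries. Genes that resemble ribosomal RNA took 7.95 to 10.5% of reads at day 0 and 3.07 to 3.62% at day 5. The part of differentiation and of RNA composition in the sensor values was not tested.

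The transcripts of interferon itself were at or near 0. Of 21 interferon genes, 17 to 21 were listed at 0 in each library, and the summed reads were 0, 1, 1 and 3 at day 0 and 0, 3, 1 and 8 at day 5. *Ifnb1*, which encodes interferon beta, was at 0 in 6 libraries and had an RPKM of 0.0349 at day 0 and 0.105 at day 5 in shMLL1 cells, the deepest libraries. The interferon alpha genes are near-identical copies, between which reads cannot be assigned with certainty. Day 5 is a single time point, and an earlier or short-lived transcript would not be seen in these libraries.

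Interferon-induced genes were examined beside the sensors. Of 29 listed, of which 28 passed the RPKM minimum, 0, 25 and 28 were higher at day 5 in the 3 knockdown lines, and 5, 0 and 0 were lower. Of all genes, 1.88%, 5.54% and 5.25% were higher and 4.57%, 5.67% and 4.02% lower. The median log2 ratio of (RPKM + 0.1) of the 28 interferon-induced genes was -0.43, 2.58 and 4.29, whereas that of the sensor genes on this scale was -0.12, 1.09 and 2.04. At day 0, 16, 13 and 12 of the 29 were lower in the 3 knockdown lines, and 0, 1 and 2 were higher. Beside them, 4.26%, 6.05% and 7.43% of all genes were lower and 1.98%, 2.95% and 1.67% higher. From day 0 to day 5 within each of the 4 lines, 8, 18, 25 and 28 were higher. The number lower was 1, 0, 0 and 0. Of all genes, 13.0%, 12.8%, 12.6% and 20.4% were higher and 8.56%, 8.44%, 4.96% and 6.89% lower. The median log2 change of (RPKM + 0.1) was 0.63, 1.15, 4.29 and 5.81. The higher calls at day 0 rested on few reads. *Mx1* had 2 reads in shControl, 3 in shNFIB and 8 in shMLL1 cells, and *Rsad2* had 1 in shControl and 3 in shMLL1 cells. Some lower calls did as well, since *Rsad2* and *Cmpk2* had 1 and 2 reads in shControl cells and 0 in shKDM4D and shNFIB cells. The RPKM of *Ifit3*, which encodes an antiviral RNA-binding protein, was 48.5, 45.7, 489 and 1130 at day 5. *Ifit1*, which encodes a related protein that binds foreign RNA ends, was 17.0, 13.5, 273 and 386 in the same order. *Bst2*, which encodes the virus-tethering protein tetherin, was 10.7, 6.97, 127 and 220. *Lgals3bp*, which encodes a secreted glycoprotein, was 126, 112, 304 and 499. In these 4 genes the shKDM4D library lay below the shControl library at day 5. *Rsad2* and *Cmpk2* passed the RPKM minimum only through shMLL1 cells at day 5. *Mx1*, *Ifi44* and *Cxcl10* passed it only through shNFIB and shMLL1 cells at day 5. The presence of these genes among those counted therefore depends on the libraries in which they were called higher. The list of interferon-induced genes was chosen with results of the same libraries known.

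**Figure D4:**
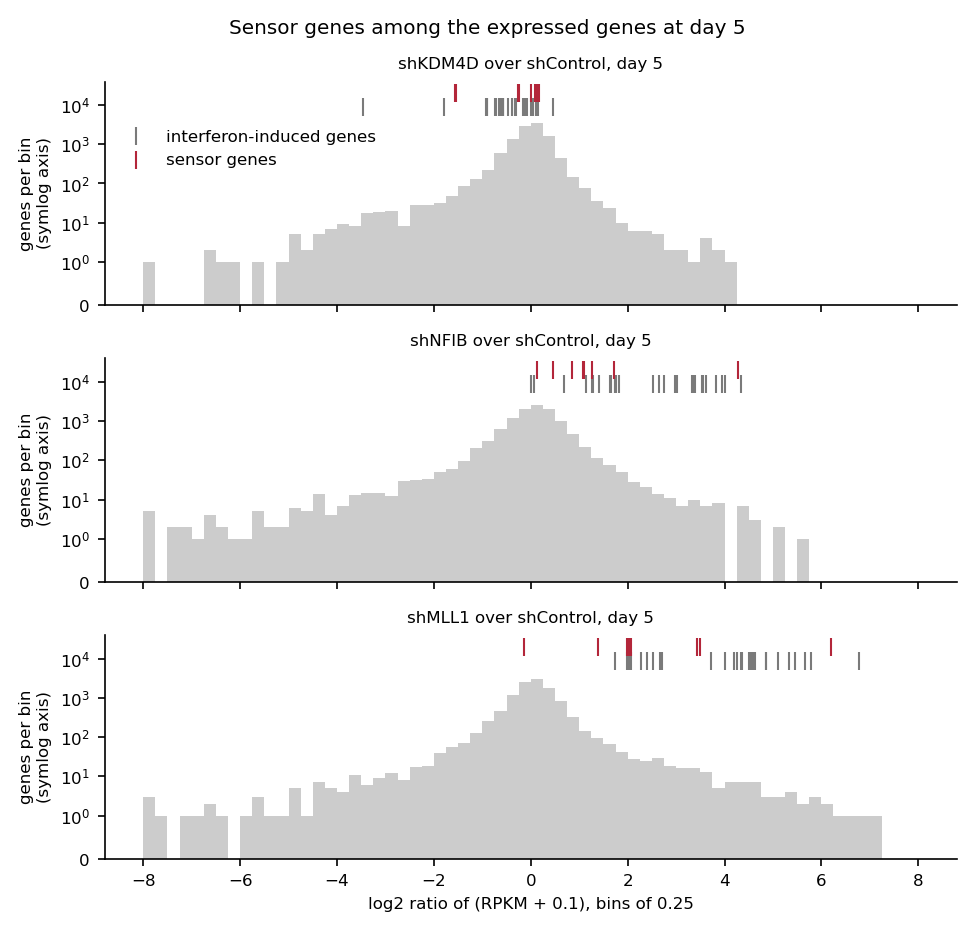
Number of expressed genes (grey bars, symmetric log axis) by log2 ratio of (RPKM + 0.1) to shControl cells at day 5, in bins of 0.25, with ratios beyond the axis ends placed in the end bins. The ticks mark the 8 sensor genes (red) and the interferon-induced genes (grey), which lie mostly right of 0 in shNFIB and shMLL1 cells and around or left of 0 in shKDM4D cells.

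Other genes of the sensing pathways are given by counts, to be read beside the 1.88%, 5.54% and 5.25% of all genes that were higher and the 4.57%, 5.67% and 4.02% that were lower at day 5 in the 3 knockdown lines. Of 21 partners and kinases of the RNA sensors, 0, 2 and 3 were higher at day 5 in the 3 knockdown lines, and 0 were lower. Their medians on the (RPKM + 0.1) scale were 0.06, 0.41 and 0.10. The RPKM of *Ddx60*, a helicase linked to RIG-I, was 0.357, 0.192, 3.79 and 11.3 at day 5 in the 4 lines. *Ddx60* passed the RPKM minimum only through shNFIB and shMLL1 cells at day 5, so its presence among the genes counted depends on those libraries. *Zc3hav1*, which encodes the antiviral protein ZAP, had an RPKM of 16.9, 17.2, 12.6 and 12.9 at day 0. At day 5 it was 8.01, 10.5, 16.7 and 25.0. The log2 change of *Zc3hav1* from day 0 to day 5 was -1.08 in shControl, 0.41 in shNFIB and 0.95 in shMLL1 cells. The RPKM of the signalling kinase *Tbk1* at day 5 was 15.7, 13.9, 21.0 and 16.7. That of the transcription factor *Irf3* was 5.25, 5.19, 5.56 and 4.91, so that both were within 2-fold of shControl cells like *Mavs*. *Rnf135*, *Tbk1* and *Irf3* were named after their values were seen, and *Rnf135*, a ligase for RIG-I, was higher in shMLL1 cells (8.48 against 3.36).

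Among 12 endosomal Toll-like receptors and adaptors other than *Tlr3*, 7 passed the RPKM minimum, and of these 0, 1 and 1 were higher at day 5 in the knockdown lines, and 0 were lower. The gene that was higher was the co-receptor *Cd14*, whose RPKM was 6.61, 4.79, 5.86 and 6.94 at day 0 and 3.06, 4.03, 6.38 and 8.24 at day 5. Its log2 change from day 0 to day 5 was -1.11 in shControl, 0.12 in shNFIB and 0.25 in shMLL1 cells. The receptors *Tlr7*, *Tlr8* and *Tlr9* were at most 0.0645 in any library. The TLR3 adaptor *Ticam1* had an RPKM of 11.1, 10.2, 10.9 and 10.8 at day 5.

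Sensors of DNA were listed together with nucleases as 14 genes, of which 13 were in the files. At day 5, 0 were higher and 2 lower in shKDM4D cells, 3 were higher and 1 lower in shNFIB cells, and 6 were higher and 0 lower in shMLL1 cells. *Mb21d1*, which encodes the DNA sensor cGAS, had an RPKM of 3.76, 4.40, 4.61 and 5.67 at day 0 and 1.52, 2.66, 4.04 and 4.14 at day 5, so that the shControl value was the lowest on both days. *Trex1*, which encodes an exonuclease that removes cytosolic DNA, had 4.92, 4.76, 12.4 and 14.3 at day 5. *Ifi205*, of the interferon-inducible family around *Ifi204*, had 0.0743, 0.0222, 0.348 and 3.45, and the genes of this family are close copies of each other. These *Ifi205* values rested on 6, 2, 23 and 550 reads, and it passed the RPKM minimum only through shMLL1 cells at day 5.

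Of 11 further kinases of eIF2alpha and effectors of ZBP1, 10 passed the RPKM minimum, and of these 0, 0 and 1 were higher at day 5 and 0 were lower. The gene was *Mlkl*, which encodes the executor of necroptosis, with an RPKM of 9.77, 9.64, 16.4 and 47.5. Its upstream kinase *Ripk3* was at most 0.278 in any library. *Eif2ak1*, *Eif2ak3* and *Eif2ak4*, the kinases that phosphorylate the same translation factor as PKR, were within 2-fold at day 5 in each line. Of 11 genes of RNA editing and RNA decay, 9 passed the minimum, and of these 0, 0 and 2 were higher and 0 lower, the 2 being the helicase *Mov10* (RPKM 2.71 in the shControl and 6.13 in the shMLL1 library) and the exoribonuclease *Pnpt1* (10.6 and 32.2). Of 15 inhibitors of MAVS signalling, 0, 1 and 1 were higher and 1, 2 and 1 lower. The higher gene was *Nlrc5*, with an RPKM of 0.244, 0.223, 0.632 and 2.33. *Nlrc5* passed the RPKM minimum only through shMLL1 cells at day 5, so its presence among the genes counted depends on that library. *Rnf125*, a ligase that marks RIG-I and MAVS for degradation, was lower in each knockdown line at day 5, with an RPKM of 5.51, 2.15, 0.473 and 0.786. At day 0 its RPKM was 0.338, 0.652, 0.723 and 0.373. In shControl cells it rose from day 0 to day 5 by a log2 ratio of 4.03.

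Over the 8 libraries, *Ddx58*, *Ifih1*, *Dhx58*, *Tlr3*, *Zbp1*, *Eif2ak2* and *Adar* had Pearson correlations of log2(RPKM + 0.1) with each other between 0.82 and 0.99, and *Mavs* had correlations with them between -0.61 and -0.22. The 8 points are single libraries in which 2 lie apart from the rest, so these values describe the shared pattern only. The genes most like *Ddx58* were *Trim34a* (0.993) and *B2m* (0.992), the light chain of MHC class I. The gene most like *Dhx58* was *Uba7* (0.994), which encodes the activating enzyme of ISG15. *Zbp1* was most like *Parp11* (0.988) and *Rtp4* (0.978), *Tlr3* like *Tgtp1* (0.989) and *Parp11* (0.986), *Eif2ak2* like *Mx1* (0.988), *Adar* like *Cxcl10* (0.983) and *Ifih1* like *H2-Q2* (0.990). These were the first 1 or 2 of the 5 nearest genes of each sensor. The others ranged from *Ifitm3* (0.985) for *Eif2ak2* and *Irgm1* (0.982) for *Adar* to genes of other roles. Among the latter were *Epb41l4aos* (0.986) and *Bnip1* (0.981) for *Ifih1*, *Hist1h1d* (0.987) for *Eif2ak2* and *Mrps31* (0.980) for *Adar*. *Trim34a*, *Tgtp1* and *H2-Q2* have close copies in the genome, and their reads may be divided among them.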

How the data were processed

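RNA-seq libraries (SMARTer stranded kit) were mapped by the authors to GRCm38 in CLC Genomics Workbench (version 11.0.1; costs of 2 for a mismatch and 3 for each inserted or deleted base, with minimum fractions of 0.8 for length and similarity), and the deposited values are RPKM per gene. The gene annotation and the use of strand in counting are not given in the sources used here. Reads were recovered from the RPKM steps and the exon lengths of GENCODE M21, which held 40851 of the 41325 symbols. Between 96.2% and 96.5% of values came out within 0.02 of a whole read. No count test was run, since each condition has 1 library. Ratios were taken on RPKM without a pseudocount, with exact (Clopper-Pearson) 95% intervals from both libraries' reads. Intervals of a difference of changes used the normal approximation on reads. List medians used log2(RPKM + 0.1). Named were all 9 sensors, the targeted genes, the nearest genes by correlation and listed genes past 2-fold or of highest RPKM, and some other listed genes were named for their role after their values were seen. The members and lists were chosen with earlier results of these data known. Alternatives were other minimums, pseudocounts of 0.1 and 1, quantile normalization, median-of-ratios scaling, removal of ribosomal RNA-like genes, ratios to *Gapdh*, and protein coding genes alone. The scripts were tested on simulated data. Analyses used Python 3.11.15, pandas 2.3.3 and scipy 1.17.1.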

Additional observations from a re-analysis of the deposited data

Results flagged for a closer look

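*Dhx58* and *Zbp1* were past 2-fold in opposite directions at day 0 and day 5 in the same knockdown line. The log2 ratio of *Dhx58* to shControl cells in the shNFIB line was -2.27 at day 0 and 1.75 at day 5. In the shMLL1 line it was -1.98 and 3.48. That of *Zbp1* was -1.14 and 6.38 in shMLL1 cells. The calls at day 0 depended on the scale. *Zbp1* was within 2-fold with a pseudocount of 0.1 (-0.92) or 1 (-0.33) and after quantile normalization (-0.79), and *Dhx58* was within 2-fold with a pseudocount of 1 (-0.62 for shNFIB and -0.58 for shMLL1). The turn from lower to higher was not tested, because each value compares 1 library with 1 library, and the values at day 0 rest on 10 to 69 reads a library. Both days use shControl libraries of the same line, in which *Dhx58* itself rose from 0.792 to 2.99 RPKM.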

How the results depend on the processing

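The counts of sensors past 2-fold were recomputed under 9 other settings in the 10 comparisons, and 81 of 90 were within 1.5 times the value in the report. A pseudocount of 1 moved most of the others, since it shrinks the ratios of genes with a low RPKM. With it, 0 sensors were past 2-fold at day 0 in shKDM4D (3 in the report), shNFIB (2) and shMLL1 cells (2), 0 at day 5 in shKDM4D cells (2), 3 at day 5 in shNFIB cells (5) and 1 from day 0 to day 5 in shControl cells (2). A pseudocount of 0.1 and quantile normalization each left 1 in shMLL1 cells at day 0, and quantile normalization left 1 from day 0 to day 5 in shControl cells. The 7 higher sensors in shMLL1 cells at day 5 were within 1.5 times of that count under all 9. Of 480 single log2 ratios, 0 reversed a call and 24 crossed the 2-fold limit. The ratio to *Gapdh* shifted the median of all genes by up to 0.64 (shNFIB cells at day 0, where 19.7% were then higher and 3.01% lower), by -0.36 in shMLL1 cells at day 5 (3.56% and 7.74%), and from day 0 to day 5 by 0.47 in shKDM4D (23.5% and 4.28%) and -0.56 in shNFIB cells (7.30% and 17.5%). No paired analysis was possible because each condition has 1 library and the labels carry no replicate numbers, and no library could be left out. Counting error limits *Ifih1*, *Dhx58* and *Zbp1* at day 0, and the spread between clones or cultures is unknown for every value.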

Other observations

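*Aim2*, which encodes an inflammasome sensor of cytosolic DNA, did not follow the RNA sensors. Its RPKM was 1.83 and 2.90 in shControl cells at day 0 and day 5 and 3.05 and 3.42 in shMLL1 cells, but it was listed at 0 at day 0 in shKDM4D and shNFIB cells and had 0.0925 and 0.0541 there at day 5. *Thy1* had the same split of lines. *Tmem173*, which encodes the DNA sensing adaptor STING, had an RPKM of 4.22 in shMLL1 cells at day 5, against 0.832 in shControl and 0.521 in shNFIB cells. These genes were named after their values were seen.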
